A study of Mus musculus with 12 samples.

Results

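The genes described here are Igf1 (insulin-like growth factor 1), its receptor gene Igf1r and the 7 binding protein genes Igfbp1 to Igfbp7. These 9 of the 40840 genes listed for each library were chosen by name as a gene family, with earlier results on their diet difference known, so that difference is given below as a description with no test. Total RNA was sequenced from the immune cell fraction of mouse liver, the cells that Percoll separated from hepatocytes, which the labels call hepatic macrophages. Male mice aged 8 to 10 weeks received either normal chow diet (NCD) or high-fat diet (HFD) for 12 weeks, and 3 libraries were made in each of 4 groups. WT-NCD and WT-HFD mice were labelled C57BL/6 (C57BL/6J in the study's methods). Casp11-/- NCD and Casp11-/- HFD mice carried the knockout allele of strain B6.129S4(D2)-Casp4tm1Yuan/J, which is not limited to 1 cell type, in Casp4, the gene of the inflammatory caspase-11. The study asked what HFD does to these cells with and without caspase-11.

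IGF1 is a circulating growth factor that hepatocytes secrete under growth hormone, and tissue macrophages also make it. It acts through a tyrosine kinase receptor whose signal passes by the IRS adaptors to PI3K and Akt, as the insulin signal does. Most of it travels bound to IGF binding proteins, which hold it in the circulation or keep it from its receptor. IGFBP1 is made by hepatocytes and is known for its quick induction by fasting and its repression by insulin through forkhead factors. IGFBP7 binds IGF1 weakly and is abundant in endothelium.

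The bases before the start of Igf1, Igfbp1 and Igfbp4 are shown because the first is the ligand, the second is the member with the widest range among libraries and the third is the most evenly expressed of the abundant members. Each run gives the 250 bases before the RefSeq start in build GRCm38.p6, on the strand of the gene, and RefSeq windows were matched for 9 of 9 members. The Igf1 window precedes a RefSeq start that lies inside the gene as GENCODE annotates it (chr10:87858265-87937042). It is thus not the sequence upstream of the whole annotated gene. Capitals mark matches on either strand to the letters CAAAACA (the core of the insulin response element), GTTAAT (a half-site of hepatocyte nuclear factor 1) or TATAAA (the TATA box).
Igf1, chr10:87860861-87861110, plus strand: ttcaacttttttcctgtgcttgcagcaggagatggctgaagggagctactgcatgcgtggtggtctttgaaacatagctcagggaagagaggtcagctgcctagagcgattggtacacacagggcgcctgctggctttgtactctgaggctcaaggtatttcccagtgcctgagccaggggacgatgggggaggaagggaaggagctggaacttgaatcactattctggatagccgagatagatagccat
Igfbp1, chr11:7197537-7197786, plus strand: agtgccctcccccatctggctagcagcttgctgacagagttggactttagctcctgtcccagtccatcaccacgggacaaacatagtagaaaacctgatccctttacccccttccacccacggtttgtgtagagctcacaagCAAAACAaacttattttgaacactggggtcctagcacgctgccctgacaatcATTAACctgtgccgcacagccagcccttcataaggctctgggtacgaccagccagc
Igfbp4, chr11:99040994-99041243, plus strand: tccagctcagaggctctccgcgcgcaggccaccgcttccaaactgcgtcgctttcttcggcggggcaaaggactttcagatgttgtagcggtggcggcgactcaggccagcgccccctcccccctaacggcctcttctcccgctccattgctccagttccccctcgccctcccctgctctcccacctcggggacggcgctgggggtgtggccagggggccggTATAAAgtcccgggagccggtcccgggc
In the Igfbp1 window CAAAACA lay from 108 to 102 bases before the start and the reverse of GTTAAT from 56 to 51 bases before it. No other member window held either of these. Over 32851 RefSeq windows of 250 bases, 5.6% held CAAAACA, 6.4% held GTTAAT and 12.4% held TATAAA. The Igfbp4 window held TATAAA from 28 to 23 bases before the start, and the Igf1 window held none of the 3. A match is a description of the letters and not a measured site.

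The targeted gene Casp4 was listed at 12.1, 15.6 and 8.94 TPM (transcript abundance scaled to gene length and library) in the WT-NCD libraries and at 7.09, 5.60 and 11.4 TPM in the WT-HFD libraries. It was listed at 4.93, 2.56 and 15.2 TPM in the libraries labelled Casp11-/- NCD and at 2.78, 8.68 and 4.73 TPM in those labelled Casp11-/- HFD. The levels overlapped, and a sum over the gene does not show which exons were read, so Casp4 does not check the genotype labels. The header in the file of Casp11-/- HFD replicate 2 shortens the genotype unlike the others. Library WT-NCD replicate 3 stood apart: for 99.4% of 4182 genes shorter than 200 bases its TPM times the RefSeq length was 1 product within 1%, the value of no reads. Its levels correlated with those of the other libraries at r of -0.27 to -0.07 across genes, against 0.85 to 0.99 among the others, and it is left out of every mean and fit below except where 12 libraries are named. In the other 11 libraries low genes stood at whole steps, from which 1781259 to 11813515 reads per library were recovered, and 99.90% to 99.98% of values under 200 reads came out whole within 0.02. Genes under a floor of 1.01 TPM were listed at that floor. Markers of the cell fraction were uneven. The defining Kupffer cell genes Clec4f, Vsig4 and Timd4 stood at 1.01 to 143 TPM, while the hepatocyte gene Alb stood at 4445 to 18318 TPM in the same 11 libraries. Stab2, of sinusoidal endothelium, stood at 5.43 to 178 TPM, so the libraries held hepatocyte and endothelial RNA beside that of macrophages. In such bulk samples fewer cells of a type and less RNA per cell cannot be told apart.

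Of the 9 members, Igfbp7 and Igfbp4 had the highest levels, with medians of 152 and 119 TPM over the 11 libraries, and Igfbp3 and Igfbp6 the lowest. Igfbp2 followed at a median of 28.8 TPM, Igf1 at 17.1, Igfbp1 at 12.1, Igfbp5 at 4.28 and Igf1r at 4.10. The ranges of Igfbp7 and Igfbp4 overlapped, as did those of Igf1, Igfbp1 and Igfbp2 and those of Igfbp5 and Igf1r. Between its highest and lowest library Igfbp1 spanned 126-fold and Igfbp7 20.8-fold, while Igf1, Igfbp4, Igfbp5 and Igf1r spanned 3.58-fold to 4.11-fold. All 9 members passed the filter of the fit, which kept the 17950 genes that 3 or more libraries listed above the floor, and 7 of them were above the floor in all 11.

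**Figure D1:**
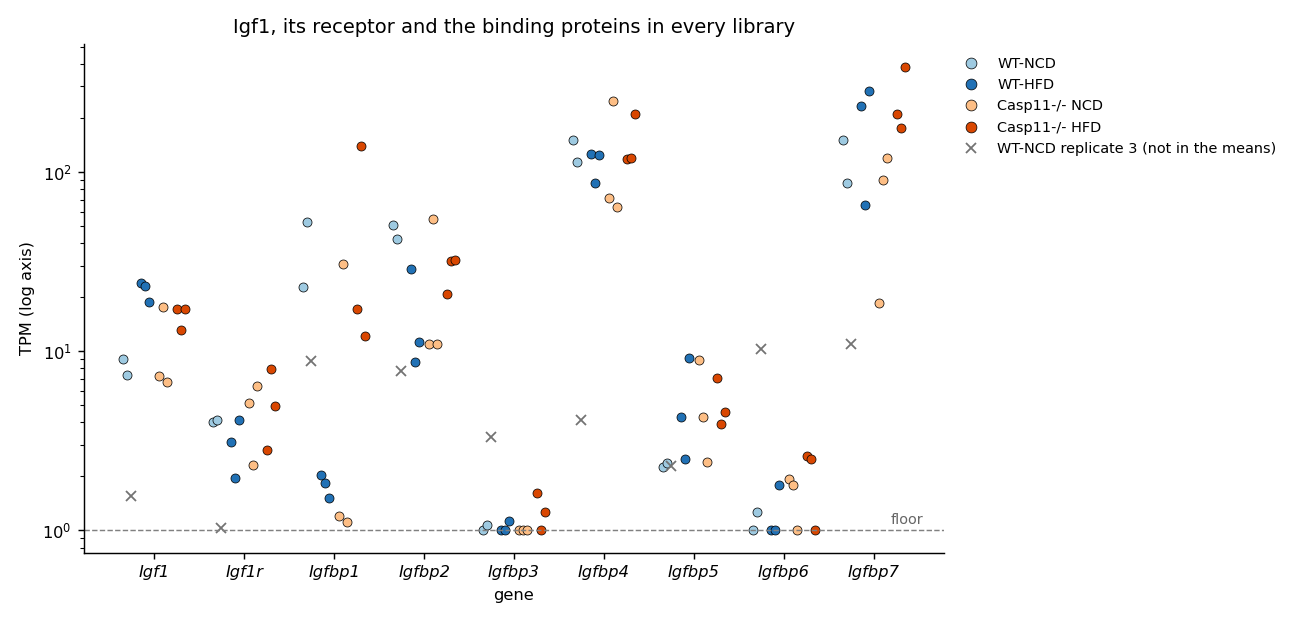
TPM (log axis) of the 9 genes in each of the 12 libraries, with 1 point per library coloured by group, a dashed line at the floor of 1.01 TPM and crosses for WT-NCD replicate 3. The Igf1 points of WT-HFD lie above both WT-NCD points, the Igfbp1 points of WT-HFD lie between 1.51 and 2.03, and Casp11-/- NCD replicate 2 lies far from its group in Igf1, Igfbp1, Igfbp2 and Igfbp4.

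Igf1, the ligand (chr10:87858265-87937042, plus strand), was higher on HFD in WT livers. In WT-NCD replicates 1 and 2 it stood at 9.03 and 7.37 TPM (654 and 599 reads), and in WT-HFD at 24.0, 23.2 and 18.8 TPM (635, 896 and 878 reads). All 3 WT-HFD libraries lay above both WT-NCD libraries, and the mean was 2.68-fold higher (8.20 against 22.0 ± 2.79 TPM, SD, n = 3). In Casp11-/- NCD it stood at 7.29, 17.6 and 6.72 TPM, and in Casp11-/- HFD at 17.3, 13.2 and 17.1 TPM. Those groups overlapped, since Casp11-/- NCD replicate 2 lay above all 3 Casp11-/- HFD libraries, and the means differed 1.51-fold. On the log2(TPM + 1) scale, where folds of low genes are understated, the diet difference was 1.32 (SE 0.51) in WT and 0.66 (SE 0.46) in Casp11-/-. Without Casp11-/- NCD replicate 2 the Casp11-/- difference was 1.07. The order of the group means was WT-HFD, Casp11-/- HFD, Casp11-/- NCD and WT-NCD, and the range of Casp11-/- NCD overlapped those of both its neighbours.

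Igf1r, the receptor (chr7:67952827-68233668, plus strand), was even among the groups. It stood at 4.04 and 4.10 TPM in WT-NCD and at 3.09, 1.94 and 4.11 TPM in WT-HFD. The Casp11-/- NCD libraries had 5.12, 2.31 and 6.41 TPM, and those of Casp11-/- HFD 2.81, 7.99 and 4.94 TPM. Groups overlapped in every comparison, and the log2 difference on HFD was -0.36 (SE 0.54) in WT and 0.15 (SE 0.48) in Casp11-/-. The sign in WT depended on the scale, as given below.

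Igfbp1, the insulin-repressed binding protein (chr11:7197782-7202546, plus strand), was lower on HFD in WT and had a higher mean on HFD in Casp11-/-. In WT-NCD it stood at 22.7 and 52.8 TPM (290 and 759 reads) and in WT-HFD at 2.03, 1.83 and 1.51 TPM (9, 12 and 12 reads). Both WT-NCD libraries lay above all 3 WT-HFD libraries, with a mean of 37.7 against 1.79 ± 0.26 TPM (SD, n = 3), a ratio of 0.0475. In Casp11-/- NCD it stood at 1.20, 30.8 and 1.11 TPM (13, 374 and 6 reads), and in Casp11-/- HFD at 17.2, 140 and 12.1 TPM (66, 1289 and 217 reads). Replicate 2 was the highest in both Casp11-/- groups, and the NCD library of that number lay inside the HFD range, so the groups overlapped while their means differed 5.10-fold. The log2 difference was -3.68 (SE 0.91) in WT and 2.61 (SE 0.82) in Casp11-/-, and 3.91 in Casp11-/- without NCD replicate 2. The low libraries rest on 6 to 13 reads, and the recovered counts cover counting error only.

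Igfbp3, the main serum carrier of IGF1, is the neighbour of Igfbp1 on the other strand (chr11:7206086-7213923). It was at the floor in 7 of 11 libraries and reached 1.62 TPM (16 reads) in Casp11-/- HFD replicate 1. In those 7 libraries the floor stood for 11.97 to 33.6 reads, so the floor and not the depth bounds what is shown, and no direction is given for it.

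Igfbp2 (chr1:72824503-72852474, plus strand), a binding protein of hepatocytes, was also lower on HFD in WT. It stood at 50.5 and 42.2 TPM in WT-NCD and at 28.8, 8.72 and 11.3 TPM in WT-HFD. The WT groups did not overlap, and the ratio of means was 0.351. Casp11-/- NCD libraries had 10.99, 54.3 and 10.9 TPM, and those of Casp11-/- HFD 20.9, 31.7 and 32.4 TPM. Here the NCD libraries spanned the HFD range, and the ratio of means was 1.12. The log2 difference was -1.63 (SE 0.62) in WT and 0.53 (SE 0.56) in Casp11-/-, and 1.27 in Casp11-/- without NCD replicate 2.

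Igfbp4 (chr11:99041244-99054392, plus strand), a secreted inhibitor of IGF action that the protease PAPP-A cleaves, was abundant in each group. It stood at 151 and 113 TPM in WT-NCD and at 126, 87.2 and 124 TPM in WT-HFD, and these overlapped. Levels in Casp11-/- NCD were 71.3, 248 and 63.5 TPM, and in Casp11-/- HFD 118, 119 and 210 TPM. The groups overlapped through Casp11-/- NCD replicate 2, the library with the highest Igfbp4 of all. The log2 difference was -0.23 (SE 0.59) in WT and 0.45 (SE 0.52) in Casp11-/-, and 1.08 in Casp11-/- without that library.

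Igfbp5 (chr1:72857932-72874884, minus strand), which lies beside Igfbp2 and binds the matrix, was low. It stood at 2.24 and 2.37 TPM in WT-NCD and at 4.30, 2.49 and 9.14 TPM in WT-HFD, with both WT-NCD libraries below the others by a narrow gap. The Casp11-/- groups overlapped, with 8.86, 4.28 and 2.41 TPM on NCD and 7.10, 3.92 and 4.55 TPM on HFD. Igfbp6 (chr15:102144362-102149511, plus strand), which prefers IGF2, was at the floor in 5 of 11 libraries and reached 2.60 TPM (8 reads).

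Igfbp7 (chr5:77349240-77408041, minus strand) had the highest median of the members and was higher on HFD in Casp11-/-, while Igfbp4 had the higher mean in WT-NCD (132 against 119 TPM) and in Casp11-/- NCD (128 against 76.1 TPM). In Casp11-/- NCD it stood at 18.5, 90.2 and 120 TPM, and in Casp11-/- HFD at 210, 176 and 384 TPM. The Casp11-/- groups did not overlap. In WT-NCD it stood at 152 and 86.8 TPM, and in WT-HFD at 232, 65.3 and 284 TPM, where WT-HFD replicate 2 lay below both WT-NCD libraries. The log2 difference was 0.50 (SE 0.71) in WT and 2.02 (SE 0.63) in Casp11-/-.

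On HFD 5 of 9 members were higher in WT, with a median log2 difference of 0.01 against -0.27 over all 17950 genes. In Casp11-/- 9 of 9 were higher, with a median of 0.45 against -0.51. These counts go by sign alone and include Igfbp3 and Igfbp6, above the floor in only 4 and 6 of 11 libraries. They also include Igfbp5, whose ratio of means was 1.001 in Casp11-/-. In WT the groups did not overlap for 2 members higher (Igf1 and Igfbp5), where 14.3% of all genes did so, and for 2 members lower (Igfbp1 and Igfbp2), where 40.3% did so. In Casp11-/- they did not overlap for 1 member higher (Igfbp7) and 0 lower, against 2.26% and 16.4% of all genes. The diet contrasts chose the members, so nothing is read from these counts. The 2 diet contrasts share no library.

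Direction also depended on the scale, since protein-coding genes held 33.9% and 37.8% of all TPM in WT-NCD but 15.7% to 25.2% in WT-HFD. Protein-coding genes held 22.3% to 42.4% in Casp11-/- NCD and 19.3% to 23.4% in Casp11-/- HFD. When each library was rescaled to its protein-coding genes, the median of all genes fitted moved to 0.08 in WT and -0.19 in Casp11-/-. The WT difference of Igfbp4 then changed sign from -0.23 to 0.51 and that of Igf1r from -0.36 to 0.21, and 7 of 9 members were higher. Igf1 stood at 2.005 in WT and 1.17 in Casp11-/- on that scale, Igfbp1 at -3.04 and 2.98, Igfbp2 at -0.91 and 1.07, and Igfbp7 at 1.24 and 2.59, each with the sign it had before.

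**Figure D2:**
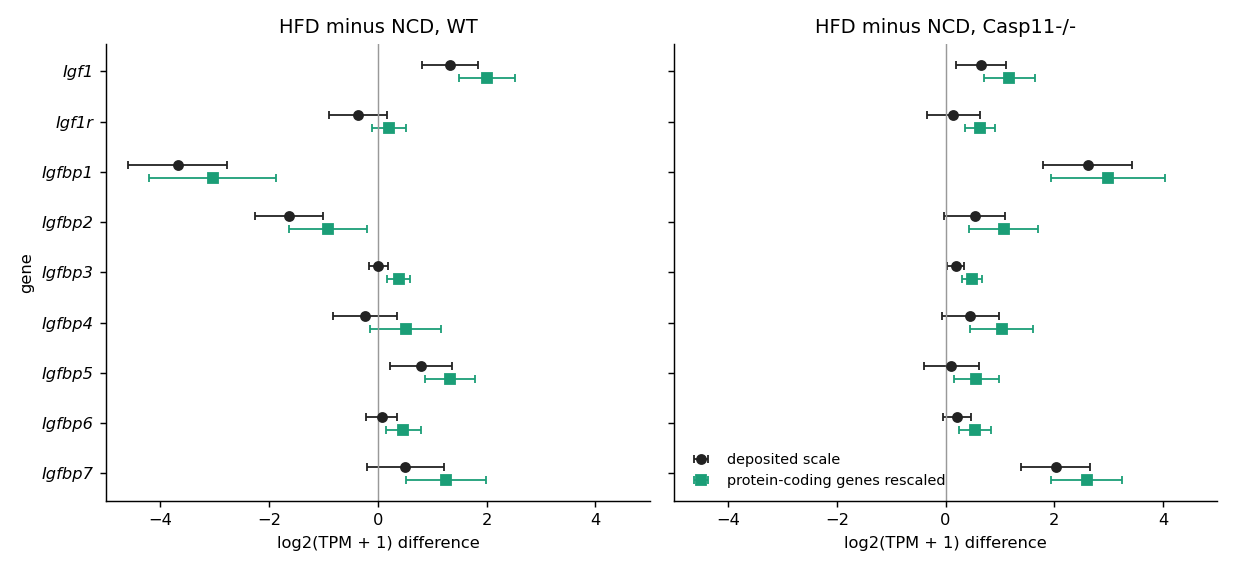
Difference in log2(TPM + 1), HFD minus NCD, of the 9 genes in WT (left) and Casp11-/- (right), with the SE of the limma fit as bars, on the deposited scale (black circles) and after rescaling to protein-coding genes (green squares). Igfbp1 lies at -3.68 in WT and at 2.61 in Casp11-/-, and only Igf1r and Igfbp4 in WT lie on opposite sides of 0 on the 2 scales.

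Genotype was compared within each diet. The members were chosen with their diet differences known, and the genotype contrasts are built from the same means of 4 groups. The p-values of the genotype contrasts are therefore not independent of that choice. On HFD, Igfbp1 was the member that differed most. All 3 Casp11-/- HFD libraries (12.1 to 140 TPM) lay above all 3 WT-HFD libraries (1.51 to 2.03 TPM), a log2 difference of 3.53 (SE 0.82) and a ratio of means of 31.4. Igf1 was lower in all 3 Casp11-/- HFD libraries (13.2 to 17.3 TPM) than in all 3 WT-HFD libraries (18.8 to 24.0 TPM), with a log2 difference of -0.45 (SE 0.46). Of all genes, 0.908% did not overlap with Casp11-/- HFD higher and 3.11% with it lower. By limma with Benjamini-Hochberg adjustment over 17950 genes 0 members were called, as were 0.0% of all genes. At an unadjusted p under 0.05 there was 1 member, Igfbp1, with an adjusted p of 1, where 135 of all 17950 genes passed. The fit on recovered reads called 0 members with 2 at that unadjusted p, where 292 of 8990 genes passed it. The adjusted p of Igfbp1 was 0.0178 among genes above the floor in every library, and ranged from 3.64e-13 (spread of these 2 groups alone) to 1 over 22 alternatives.

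On NCD, Igfbp1 was lower in Casp11-/- replicates 1 and 3 (1.20 and 1.11 TPM) than in both WT-NCD libraries, while replicate 2 at 30.8 TPM lay between them. The log2 difference was -2.76 (SE 0.91, limma adjusted p = 0.587). Without Casp11-/- NCD replicate 2 it was -4.05, with an adjusted p of 0.0519, the lowest over 22 alternatives, of which the highest was 1. Igfbp5 alone did not overlap, with Casp11-/- NCD higher by 0.77 (SE 0.57), where 4.72% of all genes did so and 2.64% did so with Casp11-/- lower. Igfbp2 differed by -1.24 (SE 0.62) and Igfbp7 by -0.95 (SE 0.71), and their groups overlapped. By limma 0 members were called, against 0.0557% of all genes, with 1 at an unadjusted p under 0.05, where 581 of 17950 genes passed. The fit on recovered reads called 0 members with 1 at that unadjusted p, where 266 of 8990 genes passed it.

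The difference between the genotypes' diet differences is built from the contrasts that chose the members, so it is a description. It was 6.29 (SE 1.23) for Igfbp1, 2.16 (SE 0.84) for Igfbp2, 1.52 (SE 0.95) for Igfbp7 and -0.66 (SE 0.69) for Igf1.

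Markers of other cells moved with several of these genes. Hepatocyte markers, 15 genes with none of the defining 3 (Alb, Apoa1 and Ttr) near the floor, summed to 21308 and 31379 TPM in WT-NCD and to 12438 to 25196 TPM in WT-HFD. They summed to 9029 to 25933 TPM in Casp11-/- NCD, where replicate 2 was the highest, and to 18558 to 26011 TPM in Casp11-/- HFD. Alb was the largest part of this sum, with 18318 of 31379 TPM in WT-NCD replicate 1. Of these 15 markers 14 were lower on HFD in WT and 15 were higher in Casp11-/-, and none was called. In WT the direction depended on the scale, with 4 lower and 11 higher after rescaling to protein-coding genes and 15 higher with 12 libraries. Sinusoidal endothelial markers, 14 genes, summed to 600 and 964 TPM in WT-NCD, 501 to 1531 in WT-HFD, 201 to 806 in Casp11-/- NCD and 1039 to 2566 in Casp11-/- HFD. Kupffer cell markers, 12 genes, summed to 110 and 147 TPM in WT-NCD, 312 to 966 in WT-HFD, 68.3 to 387 in Casp11-/- NCD and 361 to 538 in Casp11-/- HFD. On HFD 12 of 12 were higher in WT, 8 of them called by limma, and 11 of 12 in Casp11-/-, 6 of them called. Of all genes 2.18% were called in WT and 1.1% in Casp11-/-. With 12 libraries 2 were called in WT, where 0.113% of all genes were, and 0 in Casp11-/-. B cell markers, 4 genes, summed to 1101 and 1203 TPM in WT-NCD, 117 to 253 in WT-HFD, 363 to 1378 in Casp11-/- NCD and 145 to 238 in Casp11-/- HFD. All 4 were lower on HFD without overlap in both genotypes, and limma called 3 in each, but 0 in each with 12 libraries. Of all genes 40.3% were lower without overlap in WT and 16.4% in Casp11-/-. T and NK cell markers, 5 genes, summed to 352 and 454 TPM in WT-NCD, 103 to 184 in WT-HFD, 184 to 496 in Casp11-/- NCD and 82.0 to 98.9 in Casp11-/- HFD, and 5 of 5 were lower without overlap in both genotypes, with none called. After rescaling to protein-coding genes 4 of these 5 were lower in WT. Stellate cell markers summed to at most 84.8 TPM and mesothelial markers to at most 7.29 TPM. The part of cell makeup in the differences above was not tested.

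Igfbp7 followed the endothelial markers closely. Over the 11 libraries log2(TPM + 1) of Igfbp7 and of the summed endothelial markers had r = 0.98 and rho = 0.98, both with a permutation p of 1e-05, the smallest that the permutations can give, and an adjusted p of 0.00015 over 15 relations. Without the 2 libraries farthest from the median r was 0.98, and within the 6 HFD libraries it was 0.97. Igfbp7 stood at 145 and 157 TPM per 1000 TPM of these markers in WT-NCD, 130 to 189 in WT-HFD, 92.1 to 174 in Casp11-/- NCD and 150 to 202 in Casp11-/- HFD. The ratio spanned 2.19-fold where Igfbp7 itself spanned 20.8-fold, and the HFD mean was 1.12 times the NCD mean in WT and 1.24 times in Casp11-/-. Both measures share the library and its scale.

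Igfbp2 and Igfbp4 followed the hepatocyte markers, and here too both measures share the library and its scale. For Igfbp2 r was 0.89 and rho 0.85 (permutation p = 0.00052 and 0.0016, adjusted 0.0039 and 0.008), with r of 0.89 without the 2 farthest libraries and 0.93 within HFD. For Igfbp4 r was 0.81 and rho 0.86 (permutation p = 0.00238 and 0.00117, adjusted 0.0119 and 0.008), with r of 0.58 without the 2 farthest libraries and 0.56 within HFD, so much of that relation rests on those libraries. Per 1000 TPM of hepatocyte markers Igfbp4 stood at 4.82 and 5.31 TPM in WT-NCD, 5.02 to 10.01 in WT-HFD, 7.03 to 9.58 in Casp11-/- NCD and 5.01 to 8.06 in Casp11-/- HFD. That ratio for Igfbp2 was 1.61 and 1.98 in WT-NCD and 0.585 to 1.14 in WT-HFD, which did not overlap, and 1.18 to 2.09 and 1.13 to 1.34 in the Casp11-/- groups, which did. Igfbp1 had r = 0.69 and rho = 0.68 with these markers (permutation p = 0.0202 and 0.0241, adjusted 0.0758 and 0.0723), and its ratio to them still spanned 73.1-fold.

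Igf1 was higher on HFD in WT also relative to the summed hepatocyte markers. Alb weighs most in that sum, and ratios to single markers were not taken. Per 1000 TPM of these markers it stood at 0.288 and 0.346 TPM in WT-NCD and at 0.954, 1.56 and 1.51 in WT-HFD, so the HFD mean was 4.23 times the NCD mean. The ratio in Casp11-/- NCD was 0.780, 0.678 and 0.744, and in Casp11-/- HFD 0.930, 0.555 and 0.659, with the HFD mean 0.974 times the NCD mean. All 6 Casp11-/- libraries lay above both WT-NCD libraries in this ratio. They lay below all 3 WT-HFD libraries by a narrow gap, with 0.930 in Casp11-/- HFD replicate 1 and 0.954 in WT-HFD replicate 1. The share of all genes with that order was not computed. Against the Kupffer cell markers the HFD mean of the Igf1 ratio was 0.609 times the NCD mean in WT and 0.343 times in Casp11-/-. The groups overlapped in both genotypes, so no direction is read from these means. Per 1000 TPM of Kupffer cell markers Igf1 stood at 82.1 and 50.1 TPM in WT-NCD and 21.7 to 74.2 in WT-HFD. Igf1 stood at 49.8, 257 and 17.3 in Casp11-/- NCD, where replicate 2 was the highest, and 31.8 to 42.9 in Casp11-/- HFD. Its r was 0.34 (rho 0.25) with the hepatocyte and 0.48 (rho 0.42) with the Kupffer cell markers, and neither passed (permutation p for r and rho = 0.3 and 0.45, and 0.133 and 0.204, adjusted 0.375 and 0.563, and 0.266 and 0.437). Without the 2 farthest libraries r was -0.39 and 0.72, and within HFD -0.25 and 0.37. These ratios were added after the data were seen.

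**Figure D3:**
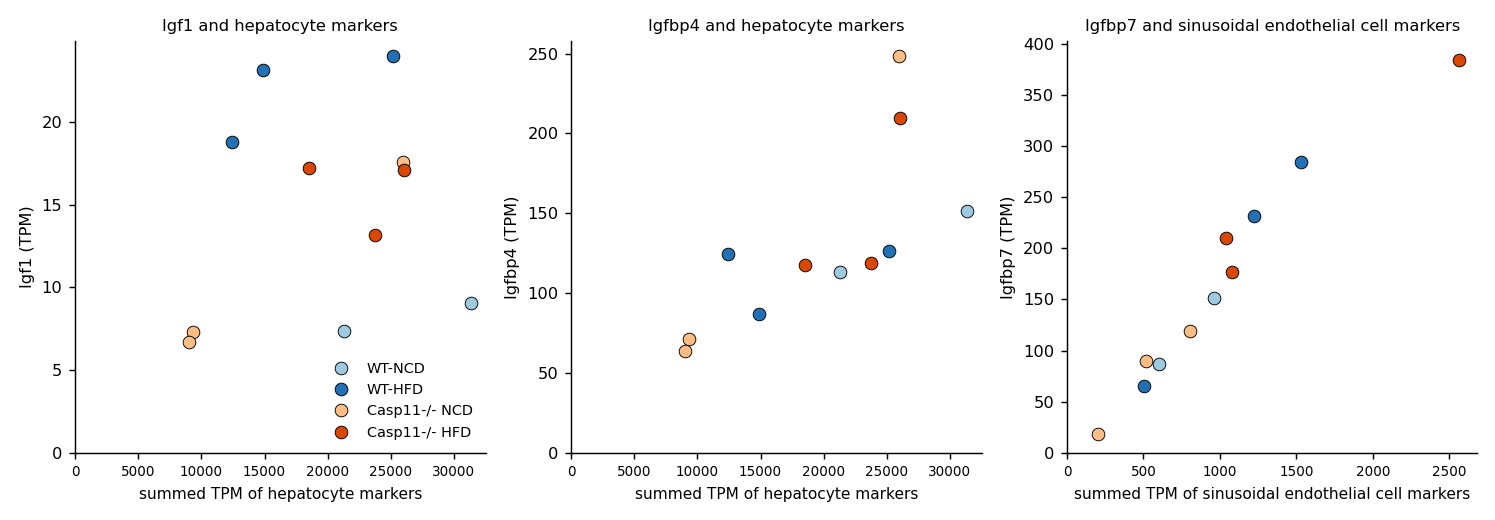
TPM of Igf1 and Igfbp4 against the summed TPM of 15 hepatocyte markers, and of Igfbp7 against that of 14 sinusoidal endothelial markers, with 1 point per library coloured by group in 11 libraries. Igfbp7 rises with the endothelial sum from 18.5 to 384 TPM, while the Igf1 points of WT-HFD (18.8 to 24.0 TPM) lie above those of WT-NCD (7.37 and 9.03 TPM) at hepatocyte sums of 12438 to 25196 TPM in WT-HFD and 21308 and 31379 TPM in WT-NCD.

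Likeness to other genes was measured as Pearson r of log2(TPM + 1) over 11 libraries among 11431 protein-coding genes that 6 or more of these listed above the floor, as a description. Nearest to Igf1 were Elovl2, an elongase of long polyunsaturated fatty acids (r = 0.97), the hydroxylysine kinase gene Hykk (0.96), the autophagy receptor gene Optn (0.95), the growth hormone receptor gene Ghr (0.95) and Tlcd4 (0.94). Ghr had 26.4 and 18.1 TPM in WT-NCD and 50.7, 52.5 and 30.8 TPM in WT-HFD, with Casp11-/- NCD at 20.1, 37.7 and 15.5 TPM and Casp11-/- HFD at 42.8, 31.9 and 34.5 TPM. As with Igf1, all WT-HFD libraries were above both WT-NCD libraries and Casp11-/- NCD replicate 2 was the highest of its group. Nearest to Igfbp4 were the proprotein convertase gene Pcsk6 (0.93), Lrig3 (0.90) and the procollagen protease gene Bmp1 (0.90). Nearest to Igfbp7 were Oit3 (0.99), Clec4g (0.99) and the endoglin gene Eng (0.98), the first 2 of them endothelial markers used above.

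Other genes of the pathway were taken from a list of 53 in 9 roles, of which 42 in 8 roles were fitted. By limma 1 of 42 was called on HFD in WT, where 2.18% of all genes were, and it was lower. This was Irs2, the adaptor that carries the insulin and IGF1 signal in liver. Irs2 stood at 40.6 and 78.8 TPM in WT-NCD and at 7.15, 4.14 and 10.1 TPM in WT-HFD, and the groups did not overlap. Its log2 difference was -2.89 (SE 0.56, adjusted p = 0.003). In Casp11-/- NCD it stood at 28.6, 30.8 and 49.0 TPM and in Casp11-/- HFD at 5.53, 16.0 and 16.6 TPM, which did not overlap either, with a difference of -1.53 (SE 0.50, adjusted p = 0.114). The difference between these was 1.37 (SE 0.75, limma adjusted p = 0.9998), and -0.06 with 12 libraries. The B cell and the T and NK cell markers were lower on HFD in both genotypes too, and their part in the Irs2 levels was not tested. The call in WT was lost without WT-NCD replicate 2 (-2.43, adjusted p = 0.186) and with 12 libraries (-1.47, adjusted p = 0.513), where 0.113% of all genes were called, and the adjusted p was between 3.68e-08 and 0.513 over 22 alternatives.

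In Casp11-/- 0 of 42 pathway genes were called by limma, where 1.1% of all genes were. At an unadjusted p under 0.05 there were 14 lower and 0 higher, where 4845 of all 17950 genes passed in either direction. The fit on recovered reads called 1 pathway gene, where 6.23% of all genes were called. After Irs2 the smallest p-values were those of Rptor, a subunit of mTORC1 (-1.35, SE 0.48, adjusted p = 0.126), and Pik3cd, a catalytic subunit of PI3K (-1.52, SE 0.56, adjusted p = 0.131). The part of the lower B cell and T and NK cell markers in these differences was not tested. Without Casp11-/- NCD replicate 2 the count was 29, where 49.1% of all genes were called. By role, the 18 PI3K and Akt genes had a median difference of -0.86 in WT and -0.97 in Casp11-/-, and 18 of 18 were lower in Casp11-/- and 17 in WT. The 7 Ras and MAPK genes had medians of -0.67 and -0.74, and the 6 genes of the growth hormone axis -0.37 and -0.60. All genes had medians of -0.27 and -0.51. After rescaling to protein-coding genes the median of the 42 was 0.05 in WT and -0.19 in Casp11-/-, against 0.08 and -0.19 over all genes, so on that scale the list stood near all genes. Igfals, the acid labile subunit that joins IGF1 and IGFBP3 in serum, is named for that role after its values were seen. It stood at 21.6 and 17.5 TPM in WT-NCD, 20.5, 9.35 and 9.21 in WT-HFD, 7.35, 24.6 and 7.65 in Casp11-/- NCD and 16.1, 15.1 and 33.03 in Casp11-/- HFD. Per 1000 TPM of hepatocyte markers its HFD mean was 0.963 times the NCD mean in WT and 1.07 times in Casp11-/-.

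**Figure D4:**
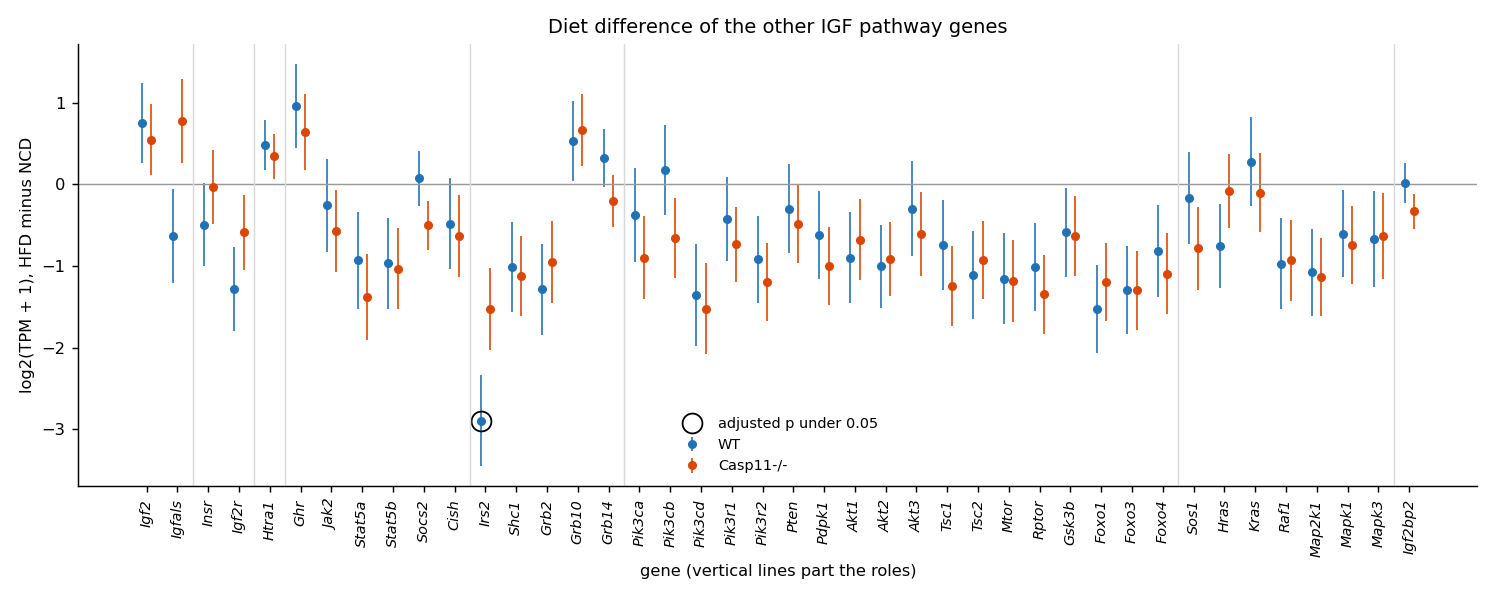
Difference in log2(TPM + 1), HFD minus NCD, of the 42 pathway genes fitted, grouped by role, in WT (blue) and Casp11-/- (orange), with the SE of the limma fit as bars and a ring where the adjusted p was under 0.05. Irs2 in WT at -2.89 is the ringed gene, and most points lie below 0 in both genotypes, as the median of all genes does.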

How the data were processed

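Total RNA of the liver immune cell fraction was read in 12 libraries, and per the labels reads were aligned with STAR to mm10 (GRCm38.p6). The deposited values are TPM that the authors exported from Qlucore Omics Explorer, and they are treated as a score because the library sums differ (1000353 to 1022495 over 40840 genes, with 6 blank rows per file left out) and low genes are set to 1.01. Replicates are separate libraries, and limma p-values measure the spread between them within groups. The permutations of the marker relations shuffled 11 libraries across the 4 groups. Their p-values therefore do not separate group differences from the spread between replicates. The low values were (reads + 0.5) divided by gene length and scaled, at 1, 3, 5 and 7 times one step, and reads were recovered from these with WT-NCD replicate 3 as the length reference. The floor and the recovered depth bound what low genes can show.

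Log2(TPM + 1) of 17950 genes, those that 3 or more of 11 libraries listed above the floor, was fitted with limma 3.58.1 (trend) in R 4.3.3, with 4 groups sharing one spread and Benjamini-Hochberg adjustment, called at 0.05. The fit was tested on made-up data with known changes. The members and lists were chosen with earlier results of these data known. Named genes were the 9 members, Casp4, defining markers, called pathway genes (or the 3 of smallest p) and those most like Igf1, Igfbp4 and Igfbp7. Gene coordinates are from the GENCODE annotation of GRCm38, and 39350 genes matched RefSeq (21702 protein-coding). Permutation tests used Python 3.11.15, SciPy 1.17.1 and 2-sided p. Alternatives were other filters, pseudocounts (0.1 and 0.01), scalings, library sets, a replicate block and limma-voom on recovered reads, the last added after the data were seen.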

Additional observations from a re-analysis of the deposited data

How the results depend on the processing

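The number of members higher on HFD was 5 of 9 in WT and ranged from 3 to 7 over the alternatives. It was 3 of the 7 fitted with genes above the floor in every library, and 3 of 7 with the spread of the 2 groups compared. Igfbp3 and Igfbp6 were not fitted in those settings, so these counts do not show a change of direction. The count was 3 to 5 of 9 when each library in turn was left out. In Casp11-/- it was 7 to 9 of those fitted. Igfbp1 kept its sign in every contrast and alternative run, Igf1, Igfbp2 and Igfbp7 kept theirs in both diet contrasts, and Igfbp4 in WT changed sign in 5 of 22. On HFD 0 members were called between genotypes, against 1 (Igfbp1) with genes above the floor in every library, where 0.00986% of all genes were called. The count was also 1 with the spread of those 2 groups, where 0.0947% of all genes were called. Calls on the difference between diet differences, an intended count, are not given, since the diet contrasts chose the members. The cause was not tested.

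Of the pathway genes 1 was called in WT, against 0 with genes above the floor in at least 1 library and 0 with 12 libraries on either scale. It was 7 with the spread of the 2 groups compared, where 16.7% of all genes were called, and 0 to 2 when each library was left out. In Casp11-/- 0 were called, against 1 on recovered reads, where 6.23% of all genes were called. It was 0 to 29 when each library was left out (29 without Casp11-/- NCD replicate 2, where 49.1% of all genes were called). The replicate numbers were not used as pairs in the main fit. Deviations of 15 same-numbered pairs correlated at -0.33 to 0.47, 8 of them above 0.1, and 6 of 11 libraries were nearest to their own number. These values do not settle whether libraries of the same number share an effect. With the replicate block 2 pathway genes were called in WT and 2 in Casp11-/-, and over all genes 1136 in WT against 391 without it and 1271 in Casp11-/- against 198. The floor of 1.01 TPM limits Igfbp3 and Igfbp6, and depth limits the low Igfbp1 libraries of 6 to 13 reads.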

Other observations

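Other receptors and a forkhead factor of the pathway were not described above, and were picked here after their values were seen. Insr, the insulin receptor gene, stood at 18.9 and 16.8 TPM in WT-NCD, 12.9, 10.95 and 13.3 in WT-HFD, 13.8, 13.9 and 28.2 in Casp11-/- NCD and 12.4, 21.1 and 19.3 in Casp11-/- HFD. Igf2r, the clearance receptor of IGF2, stood at 17.0 and 17.7 TPM in WT-NCD and 7.48, 4.52 and 8.18 in WT-HFD, which did not overlap, and at 19.8, 8.53 and 9.77 in Casp11-/- NCD and 7.65, 6.48 and 8.70 in Casp11-/- HFD, which did. Foxo1, the forkhead factor that insulin and IGF1 signals keep out of the nucleus, stood at 58.0 and 59.2 TPM in WT-NCD and 20.3, 13.5 and 27.6 in WT-HFD. The Casp11-/- NCD libraries had 64.9, 25.7 and 77.8 TPM and those of Casp11-/- HFD 19.3, 18.5 and 28.2. Its log2 difference was -1.53 in WT (SE 0.54, limma adjusted p = 0.187) and -1.20 in Casp11-/- (SE 0.48, adjusted p = 0.148). Over the 23 fits run it was called in 3 in WT and in 1 in Casp11-/-. The difference ran from -1.77 to 0.20 in WT, so its sign depended on the processing, and from -1.68 to -0.58 in Casp11-/-. B cell and T and NK cell markers were lower on HFD in both genotypes as well, and their part in these levels was not tested. Igf2 was at or near the floor apart from 10.3 TPM in Casp11-/- HFD replicate 1.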
